A study of Homo sapiens with 6 samples.

Results

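Guanylin (GUCA2A), uroguanylin (GUCA2B) and their receptor, guanylate cyclase C (GUCY2C), were followed in LS180, an established line of human colorectal adenocarcinoma cells, after an siRNA against CTNNB1, MYC or the long non-coding RNA MYU. The 3 genes were picked by symbol out of 14812 genes named in the platform's annotation, with earlier results of these arrays known, and each has 1 probe set. Their own differences between knockdown and control were part of that choice, so they are given as a description. Total RNA was measured on 6 Affymetrix arrays, with 1 array for LS180 cells given CTNNB1 siRNA, 1 for MYC siRNA and 1 for MYU siRNA, and with 1 control siRNA array titled for each of them. The duration of the transfections and the number of cultures are not given in the labels. The treatment tag of the CTNNB1 array reads CTNNB2, while its title and source name read CTNNB1.

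Guanylin and uroguanylin are small peptides that the intestinal epithelium secretes as longer precursors into the lumen. Both bind GUCY2C, a transmembrane enzyme of the apical membrane that makes cyclic GMP when a ligand is bound. Cyclic GMP then acts through the kinase PRKG2 on ion transporters, which moves salt and water towards the lumen, and bacterial heat-stable enterotoxins use the same receptor. Guanylin transcripts are commonly lost in colorectal tumours, whereas the receptor is usually kept.

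The deposited values carry no expression level. Within each pair, a probe set's values on the knockdown array and on its control are mirror images around 0, so a pair holds 1 number per gene, the log2 difference of knockdown minus control. Log base 2 was assumed. With 1 array a side there is no replicate check and no test, so "higher" and "lower" describe these arrays, and the number of arrays limits the precision. Since the levels are gone, the cell line could not be checked against markers of colon epithelium, and it is not known whether the peptide transcripts were above background on the control arrays. Nor is it known for the other genes. Differences of exactly 0 made up 3.03%, 3.48% and 3.84% of probe sets with CTNNB1, MYC and MYU siRNA, and why was not tested. As a scale for scatter, 91 genes of families with little use in the gut were taken, of which 85 were keratin-associated proteins, 5 vomeronasal receptors and 1 an olfactory receptor. Their standard deviation was 0.12 with CTNNB1, 0.09 with MYC and 0.10 with MYU siRNA, and 0 of the 91 were 2-fold apart anywhere. Well expressed genes may scatter differently from these, so they serve as a scale only and test nothing. Of the targeted transcripts, MYC stood at -1.18 with MYC siRNA and VPS9D1-AS1, the listed symbol of MYU, at -0.50 with MYU siRNA. With CTNNB1 siRNA VPS9D1-AS1 was as low, at -0.53, and MYC was lower than with its own siRNA, at -2.38. CTNNB1 has 0 listed probe sets and was not analysed here.

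The peptide genes were far higher with CTNNB1 siRNA and close to their controls with either other siRNA. The receptor gene was higher with CTNNB1 siRNA and also with MYC siRNA, by similar amounts. All 3 genes were at least 2-fold higher in the CTNNB1 pair, where 2.80% of all genes were and where 6.94% were 2-fold apart in either direction. In the MYC pair 1 of the 3 was, GUCY2C, against 0.412% of all genes higher and 0.857% apart in either direction. In the MYU pair 0 of the 3 were, against 0.0608% and 0.155% of all genes. These counts come from the differences that chose the genes, so nothing is read from them.

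GUCA2A, which encodes proguanylin, had a value of 2.73 on the CTNNB1 siRNA array and -2.73 on its control. The difference of 5.46, or 44.1-fold, ranked 2 among 14812 genes, behind CEACAM7 (5.90) and ahead of FER1L6 (4.48). On the MYC siRNA array GUCA2A had a value of -0.05 against 0.05 on the control. On the MYU siRNA array it had 0.05 against -0.05. The resulting differences were -0.10 with MYC siRNA and 0.09 with MYU siRNA.

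GUCA2B, which encodes prouroguanylin, stood at 1.80 on the CTNNB1 siRNA array and at -1.80 on the matched control. Its difference was 3.60, or 12.2-fold, and ranked 8 of all genes, between EMP1 (3.61) and MXD1 (3.52). With MYC siRNA it had 0.06 against -0.06 on the control. With MYU siRNA it had 0.05 against -0.05. The differences were 0.13 and 0.11 in the MYC and MYU pairs. The gap between the peptide genes in the CTNNB1 pair was 1.86, with guanylin the higher, while in the other pairs they were 0.23 and 0.01 apart in the opposite order.

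GUCY2C, the receptor gene, had a value of 0.74 on the CTNNB1 siRNA array and -0.74 on its control. Its difference of 1.47, or 2.77-fold, ranked 151 of all genes. With MYC siRNA it had 0.60 against -0.60 on the control, a difference of 1.20, or 2.29-fold, which ranked 21 in that pair. With MYU siRNA the receptor had -0.12 against 0.12, a difference of -0.24. The receptor therefore ranked well below the peptide genes in the CTNNB1 pair and well above them in the MYC pair. The titles of the control arrays for CTNNB1 and for MYC siRNA bear the same number, so these pairs may share 1 control hybridisation, which the labels do not settle.

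**Figure D1:**
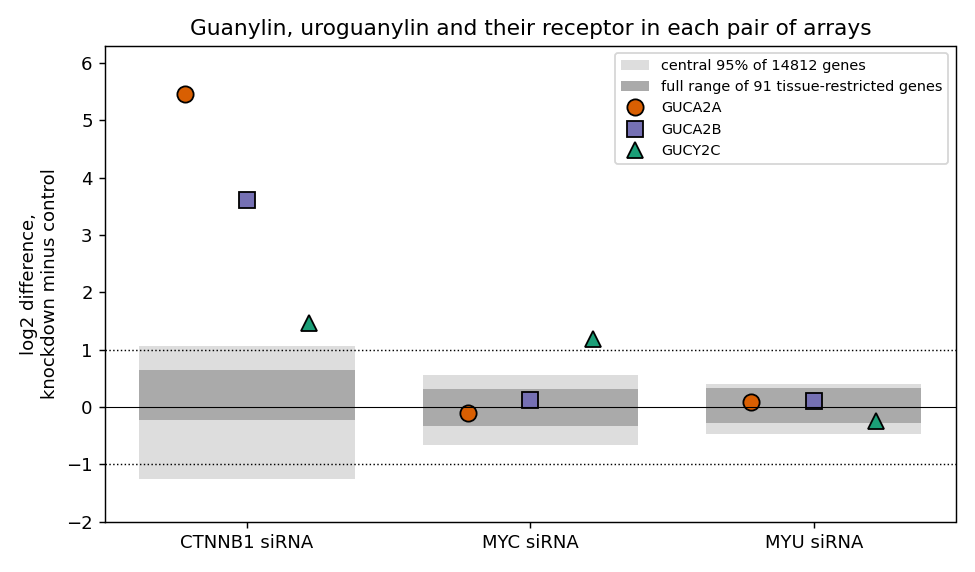
Log2 difference, knockdown minus control, of GUCA2A (circles), GUCA2B (squares) and GUCY2C (triangles) in each pair; light bands span the central 95% of 14812 genes, dark bands the full range of 91 tissue-restricted genes, and dotted lines mark 2-fold. With CTNNB1 siRNA all 3 lie above both bands (5.46, 3.60 and 1.47), with MYC siRNA only GUCY2C does (1.20), and with MYU siRNA none does.

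The peptide genes sit side by side on chromosome 1 with no protein-coding gene between them in the RefSeq table, on opposite strands with their 3′ ends facing each other. Their upstream sequences are shown because both transcripts were far higher with CTNNB1 siRNA. RefSeq's promoter table (GRCh38.p14) holds 2 of the 3 genes, GUCA2A and GUCA2B. The 250 bases before the annotated start are chr1:42164746-42164995 on the minus strand for GUCA2A and chr1:42153160-42153409 on the plus strand for GUCA2B. Capitals mark matches to the motifs described after the sequences, which were found only in the GUCA2A window.
GUCA2A: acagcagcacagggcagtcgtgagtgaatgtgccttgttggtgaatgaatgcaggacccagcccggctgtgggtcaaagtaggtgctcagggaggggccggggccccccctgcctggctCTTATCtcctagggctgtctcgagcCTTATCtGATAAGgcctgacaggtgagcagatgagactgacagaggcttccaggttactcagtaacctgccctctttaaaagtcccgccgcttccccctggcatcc
GUCA2B: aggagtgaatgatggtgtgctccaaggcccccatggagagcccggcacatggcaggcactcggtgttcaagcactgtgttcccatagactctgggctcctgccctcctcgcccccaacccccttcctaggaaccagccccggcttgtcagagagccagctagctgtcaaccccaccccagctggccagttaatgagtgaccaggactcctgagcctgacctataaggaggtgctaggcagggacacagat

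A set of 4 short motifs was searched on both strands, chosen after these sequences had been seen: GATAAG for GATA factors, ATCAAAG for TCF and LEF factors, CACGTG for MYC, and TTTATG for CDX factors. The GUCA2A window held GATAAG 3 times, starting 131, 106 and 99 bases before the start, of which the last pair lies 1 base apart on opposite strands. At least 1 match was present in 5.65% of 35116 promoter windows of the same length. At least 3 matches were present in 0.0142%, or 5 windows, and the GUCA2A window is among those 5. Since the motif was chosen with the sequence in view, nothing is read from these shares. The GUCA2B window held GATAAG 0 times. The motifs ATCAAAG (2.26% of windows), CACGTG (6.34%) and TTTATG (9.64%) were found in neither window. The peptide genes thus shared none of the 4 motifs in these windows. A match is a run of letters and not a binding site. The GATA factor genes themselves, named here because of the matches, had differences of 0.13 (GATA4), 0.11 (GATA5) and 0.23 (GATA6) in the CTNNB1 pair.

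Genes around the peptide locus did not share the large differences. Of the 10 protein-coding genes on either side, 14 were measured, and 0 were at least 2-fold higher in any pair. Of all genes 2.80%, 0.412% and 0.0608% were, with CTNNB1, MYC and MYU siRNA. Among 14 genes a count of 0 is near those shares. The nearest measured gene on one side, HIVEP3, a zinc finger transcription factor gene, had values of 0.04, 0 and 0 for CTNNB1, MYC and MYU siRNA. On the other side FOXJ3, a forkhead factor gene, had -0.26, -0.08 and -0.07. Over the 14 neighbours the CTNNB1 pair ran from -1.29 to 0.70 with a median of -0.08. At least 2-fold lower in that pair were CTPS1 (-1.29), the CTP synthase gene, and PPIH (-1.15), a spliceosomal cyclophilin gene. That is 2 of 14, where 4.14% of all genes were.

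Around GUCY2C on chromosome 12 some neighbours were higher together with the receptor gene. Again 14 of 20 neighbours were measured, and 3 of the 14 were at least 2-fold higher with CTNNB1 siRNA, against 2.80% of all genes. PLBD1, a phospholipase B-like gene and the next protein-coding gene on one side, had values of 1.22, 1.17 and 0.34 under CTNNB1, MYC and MYU siRNA in turn. ERP27, an endoplasmic reticulum protein gene 8 places away on the other side, had 1.30, 1.66 and -0.78. Both were thus at least 2-fold higher in the same 2 pairs as the receptor gene, and in the MYC pair they were 2 of 14, against 0.412% of all genes. EMP1, an epithelial membrane protein gene 4 places away, had 3.61 with CTNNB1 siRNA, but -0.23 with MYC siRNA and -0.46 with MYU siRNA, so, like the peptide genes, it was 2-fold higher with CTNNB1 siRNA alone. The nearest measured gene on ERP27's side, the splicing factor gene WBP11, had -0.66, -0.22 and -0.15. The median of the 14 was -0.02 with CTNNB1 siRNA and 0.04 with MYC siRNA, so the high values are interspersed with ordinary ones. GUCY2C-AS1, an antisense RNA at the receptor locus, has 0 listed probe sets.

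**Figure D2:**
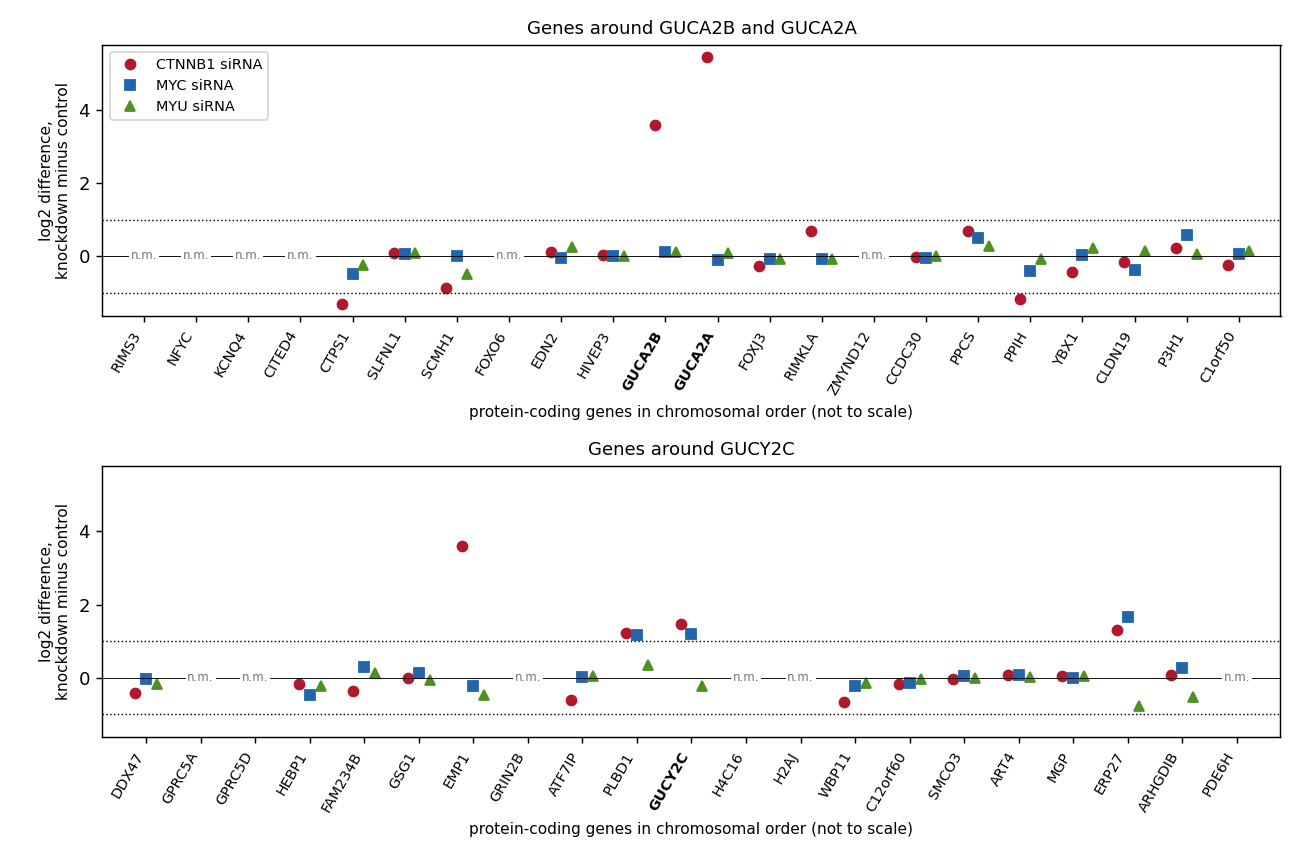
Log2 difference, knockdown minus control, of the protein-coding genes in chromosomal order around the peptide genes (upper panel) and GUCY2C (lower panel); "n.m." marks genes with no listed probe set and dotted lines mark 2-fold. In the upper panel only GUCA2B and GUCA2A exceed 2-fold upwards, while in the lower panel PLBD1 and ERP27 do so with both CTNNB1 and MYC siRNA, as GUCY2C does.

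Few genes that act downstream of the receptor could be followed. Of 51 genes listed for cyclic GMP signalling, 11 have a listed probe set, and the kinases, the chloride channel CFTR and the sodium-proton exchanger SLC9A3 are among those not analysed here. In the CTNNB1 pair 1 of the 11 was at least 2-fold higher and 0 were lower, with a median of 0.03 against 0 for all genes, of which 2.80% were higher and 4.14% lower. With 11 genes such counts are near those shares. Among effectors, VASP, an actin regulator that cyclic GMP-dependent kinases phosphorylate, had values of 1.07, 0.08 and 0.20 under CTNNB1, MYC and MYU siRNA in turn. NHERF4, a PDZ scaffold protein gene whose product binds GUCY2C, had 0.32, 0.03 and -0.10. PDZK1, another scaffold of the brush border, had 0.02, 0.07 and -0.04.

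On the side of cyclic GMP breakdown, the phosphodiesterase gene PDE9A had values of 0.59, 0.33 and -0.07, and did not reach 2-fold in any pair. PDE11A, a phosphodiesterase for both cyclic nucleotides, had 0.11, 0.02 and -0.02. The natriuretic peptide system uses related receptor cyclases, of which NPR2 was not analysed here. The receptor gene NPR1 had values of 0.08, 0.03 and -0.17, and the clearance receptor gene NPR3 had -0.02, 0.01 and 0.07. The ligand genes NPPA, NPPB and NPPC had -0.04, 0.03 and 0.02 in the CTNNB1 pair. Together with GUCA1C, which encodes a calcium sensor for retinal cyclases and had -0.02 in that pair, these 6 genes ranged from -0.04 to 0.08 with CTNNB1 siRNA.

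Markers of the cells that make the peptides were compared next, in lists written with the highest genes of these arrays known. Of 16 mature colonocyte genes measured, 11 were at least 2-fold higher with CTNNB1 siRNA, 0 were lower and 5 lay within 2-fold, with a median of 1.48, where 2.80% of all genes were 2-fold higher. Farthest from 0 were CEACAM7 (5.90), KRT20 (4.39), EMP1 (3.61), CEACAM1 (3.40) and TSPAN1 (3.03). The 5 within 2-fold were also established markers of mature colonocytes and were named after their values were seen. They were the carbonic anhydrase genes CA1 (0.01) and CA4 (-0.18), the water channel gene AQP8 (0.13), CLCA4 (0.04) and TMIGD1 (exactly 0). Whether they were above background is not known, since levels are gone. The 5 farthest genes encode 2 adhesion molecules of the CEACAM family, a keratin of the differentiated gut, an epithelial membrane protein and a tetraspanin. In the MYC pair 3 of the 16 were at least 2-fold higher, against 0.412% of all genes. They were CEACAM7 (2.995), CDHR5 (1.45) and KRT20 (1.16), the list median was 0.07, and CDHR5, a brush border cadherin gene, was named after its value was seen. In the MYU pair 0 of the 16 were 2-fold apart, which is near the share of all genes, 0.155%. In the MYC pair the receptor gene therefore stood beside a few colonocyte genes and the peptide genes near the median of the list.

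In the human colon, guanylin and uroguanylin are also known from a rare epithelial cell type marked by BEST4 and OTOP2. Of 9 markers of that type measured, 0 were 2-fold apart in any pair, against 6.94%, 0.857% and 0.155% of all genes with CTNNB1, MYC or MYU siRNA. Among 9 genes a count of 0 is near those shares. With CTNNB1 siRNA HES4 had 0.21, OTOP2 0.18, BEST4 -0.12, OTOP3 0.10 and SPIB 0.05. The list median was 0.02 in that pair. Whether these markers were above background is not known, since levels are gone.

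Goblet cell genes lay between these lists. Of 12 measured, 4 were at least 2-fold higher with CTNNB1 siRNA and 0 were lower, against 2.80% and 4.14% of all genes, with a median of 0.66. The secretory transcription factor gene SPDEF had 2.24, the trefoil peptide gene TFF3 1.89, SYTL2 1.32, AGR2 1.29 and ZG16 0.81. The 8 within 2-fold also include CLCA1 (exactly 0), RETNLB (0.04), REP15 (0.04) and ITLN1 (0.07), named after their values were seen. For these too, it is not known whether they were above background. ATOH1 (-0.44) was the only gene of the list below 0. In the MYC and MYU pairs 0 of the 12 were 2-fold apart, which is near the shares of all genes, 0.857% and 0.155%. Of 14 intestinal transcription factor genes 1 was 2-fold higher with CTNNB1 siRNA, SPDEF, a count near the share of all genes, and the median was 0.14. The others farthest from 0 were KLF4 (0.85), KLF5 (0.62), ATOH1 (-0.44) and CDX2 (-0.42), while HNF4A was not analysed here.

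With CTNNB1 siRNA 15 of 18 beta-catenin target genes and 8 of 9 stem and progenitor markers were below 0, where 7236 of all 14812 genes were. Fewer of the listed genes were lower by 2-fold. Of 18 beta-catenin target genes, 8 were at least 2-fold lower with CTNNB1 siRNA, where 4.14% of all genes were, and 1 was higher, with a median of -0.69. MYC had -2.38, the feedback gene AXIN2 -2.23, the surface receptor gene CD44 -2.13 and the stem cell receptor gene LGR5 -2.09. The higher gene was DKK1, a secreted Wnt antagonist, with 1.69. Within 2-fold lay 9 targets, among them LEF1 (0.00), SP5 (-0.01), SOX9 (-0.09) and CCND1 (-0.10), named after their values were seen. Of 9 stem and progenitor markers 4 were 2-fold lower and 0 higher, and their median was -0.73. They overlap the target list and include CDCA7 (-2.05) and ASCL2 (-0.73). In the MYC pair, where the receptor gene was higher, 2 of the 9 were 2-fold lower, against 0.446% of all genes. They were MYC (-1.18), which that siRNA targets, and CDCA7 (-1.32). The count therefore includes a gene that the design meant to lower, so nothing is read from it. LGR5 (0.30) was the only 1 of the 9 above 0 in that pair, AXIN2 had -0.27 and the list median was -0.40. Of the 18 beta-catenin targets 15 were below 0 in the MYC pair, where 7312 of all 14812 genes were. The median of the targets was -0.42 in that pair. At least 2-fold apart there were 1 higher, DKK1 (1.74), and 1 lower, MYC, against 0.412% and 0.446% of all genes.

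Markers of cells foreign to the line were read beside these values. Of 3 fibroblast markers measured, LUM had 2.78 with CTNNB1 siRNA, DCN 0.01 and THY1 -0.04. Of 4 leukocyte markers CD68, also a lysosomal protein gene, had 2.65, LYZ -0.23, NKG7 0.05 and CD14 -0.03. So 1 of the 3 and 1 of the 4 were at least 2-fold higher in the CTNNB1 pair, against 2.80% of all genes. In the MYC and MYU pairs 0 of these 7 were 2-fold apart, which is near the shares of all genes, 0.857% and 0.155%. The part of other cells in the members' values was not tested. Fewer cells of a type and less RNA per cell cannot be told apart in such bulk samples.

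**Figure D3:**
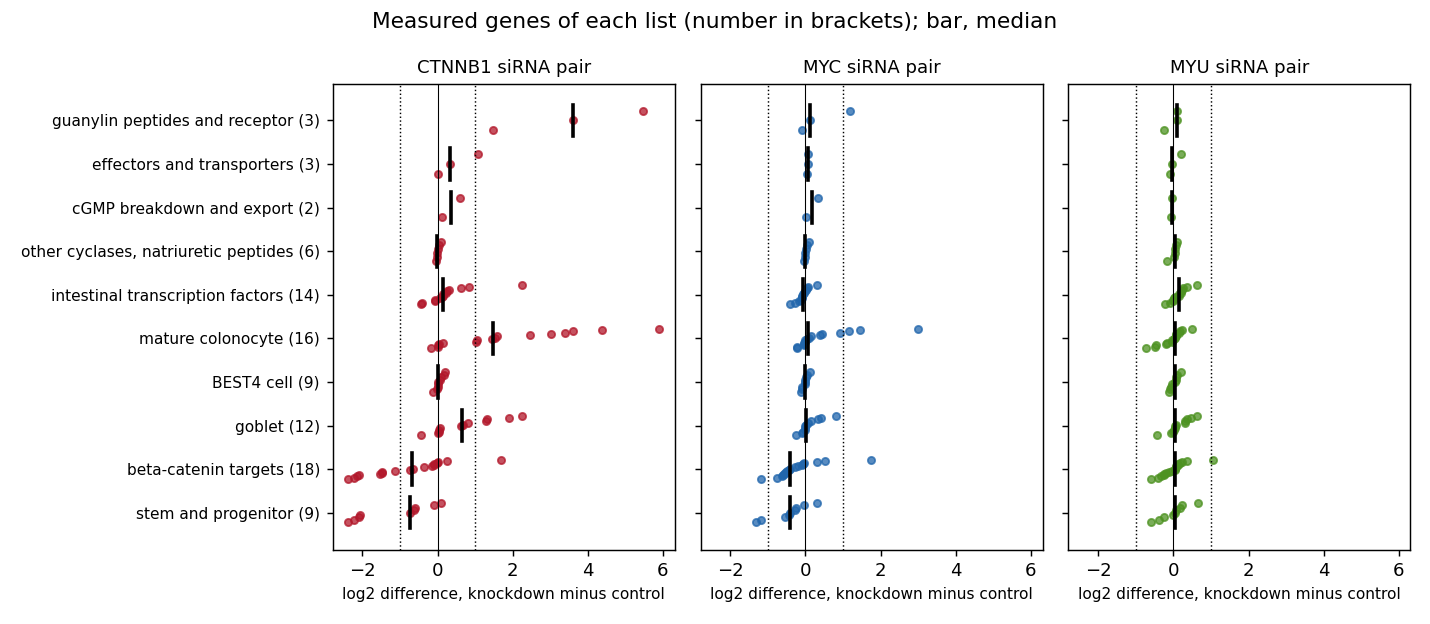
Log2 difference, knockdown minus control, of each measured gene (points) of the lists, with the number measured in brackets, the list median as a bar and dotted lines at 2-fold. With CTNNB1 siRNA the peptides and receptor (median 3.60) and mature colonocyte genes (1.48) lie to the right, while cyclases and natriuretic peptides and BEST4 cell markers cluster at 0.

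The genes with the most similar pattern were taken as those at the smallest Euclidean distance over the 3 differences, among named protein-coding genes. A likeness over 3 numbers that may share a control array is a description only. For GUCA2A they were TFF2 (distance 1.14), FER1L6 (1.26), MUCL3 (1.78), KRT20 (1.85) and GUCA2B (1.87). These distances are long, and few genes reach such values. TFF2, a trefoil peptide gene, had 4.36, 0.11 and 0.30 under CTNNB1, MYC and MYU siRNA in turn. KRT20 had 4.39, 1.16 and -0.73, so its values in the MYC and MYU pairs differ from those of guanylin.

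For GUCA2B the nearest was CEACAM1 (distance 0.21), with 3.40, 0.10 and 0.07. TFF1 (0.60), EMP1 (0.67), TFF2 (0.78) and MUCL3 (0.80) followed. TFF1 is a further trefoil peptide gene and had 3.18, 0.31 and 0.50. By this distance the peptide genes thus have TFF2 and MUCL3 in common among their nearest genes.

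The receptor gene had a separate set of near genes, at shorter distances. LRRC19, which encodes a leucine-rich repeat receptor, lay at 0.11, with 1.48, 1.16 and -0.34. HGSNAT, a lysosomal acetyltransferase gene, lay at 0.13, with 1.46, 1.06 and -0.25. MYOF (0.15), a membrane repair protein gene, S100A10 (0.24), which encodes the partner of annexin A2, and HEPH (0.26), the hephaestin gene of enterocyte iron export, came next. All 5 were at least 2-fold higher in both the CTNNB1 and MYC pairs, a property that follows from the choice of near genes.

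**Figure D4:**
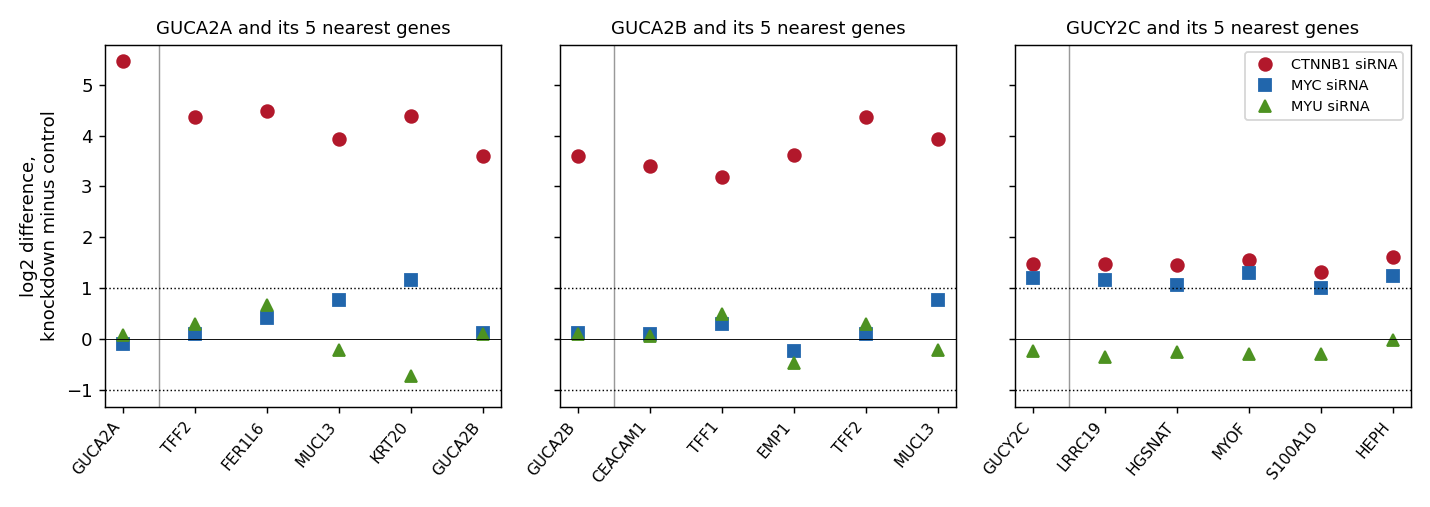
Log2 difference, knockdown minus control, in the CTNNB1 (circles), MYC (squares) and MYU (triangles) pairs for each member, left of the grey line, and its 5 nearest genes by Euclidean distance; dotted lines mark 2-fold. For GUCY2C circles and squares lie close together above 1, whereas for GUCA2A and GUCA2B the circles stand far above the rest.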

How the data were processed

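Per the labels, total RNA was prepared with TRIsure, biotin-labelled and processed by Affymetrix's standard protocol. How background, normalization and summarisation were handled is not given in the sources used here. Values, read as log2 expression, were deposited already centred by the authors within each pair, since knockdown and control values add up to 0 within 1e-06. The base of 2 was assumed.

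Differences were knockdown minus control for 44629 probe sets. Of these, 15835 have 1 symbol in the annotation, 0 have several and 28794 are not in it. All 15835 identifiers matched RefSeq's gene table (GRCh38.p14), giving 14812 genes. The 651 genes with several probe sets were averaged. Genes were counted at 2-fold, a size rule and not a test. The members and lists were chosen with earlier results of these data known. Olfactory and taste receptors had been planned as the scale for scatter, but only 1 was measured, so keratin-associated and vomeronasal receptor genes were added after the data were seen. Probe sequences were not used, so cross-hybridisation between similar transcripts was not tested.

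Named were the members, every measured cyclic GMP gene, up to 5 genes farthest from 0 in the CTNNB1 pair in each other list, the 5 nearest patterns, and the nearest and any 2-fold locus neighbours. Some genes were also named after their values were seen, as marked where they stand. Counting and distances were tested on simulated data. Python 3.11.15, numpy 2.4.6, pandas 2.3.3 and matplotlib 3.10.9 were used.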

Additional observations from a re-analysis of the deposited data

How the results depend on the processing

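Centring each array on its median moved none of the 9 member differences and 33 list medians by more than 0.00773. Taking the probe set nearest to 0 left the 9 member differences as they were, since each member has 1 probe set, and moved 1 of 33 list medians by more than the scatter, that of the leukocyte markers in the MYU pair, to 0.16. At 1.5-fold the CTNNB1 pair had 2406 genes apart, 954 higher and 1452 lower, the MYC pair 857, 319 higher and 538 lower, and the MYU pair 278, 99 higher and 179 lower. Counting every probe set, with or without a gene name, at 2-fold gave 1756, 759 and 997 for CTNNB1 siRNA, 269, 151 and 118 for MYC siRNA, and 48, 24 and 24 for MYU siRNA. Protein-coding genes alone gave counts within 1.5-fold of those of all genes. Distances were also taken with each pair divided by its standard deviation. Then 4 of 5 nearest genes were shared for GUCA2A, 4 of 5 for GUCY2C and 3 of 5 for GUCA2B. For GUCA2B, LUM and TRANK1 came in for EMP1 and MUCL3. For GUCA2A, CEACAM1 came in for KRT20, so the peptide genes then had TFF2 and CEACAM1 in common. No paired analysis was possible because each knockdown and each control has 1 array. For the same reason no array could be left out in turn, and no difference has an error of its own. Signal over background could not be read from centred values.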
